A study of Mus musculus with 6 samples.

Results

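Expression of 9 genes of homologous recombination and of the Fanconi anaemia pathway was followed across the libraries of a myoblast knockdown experiment. They are Brca1, Brca2, Rad51ap1, Rad54l, Blm, Exo1, Fanca, Fancd2 and Fanci. The genes were taken by name, with no cutoff on a measured value, from a list drawn up with earlier results of these data known. All 9 were present among the 17558 genes of the deposited table, and all 9 passed the filter on low counts that left 12643 genes for testing.

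RNA was sequenced from C2C12, an immortalized mouse myoblast line that withdraws from the cell cycle and forms myotubes once serum is reduced. The cells stably carried a scrambled hairpin (shScr) or a hairpin directed at the pyruvate kinase isoform Pkm1 (shPkm1) or Pkm2 (shPkm2). Each of these 3 groups had 2 libraries, the genotype label was WT throughout, and every culture was harvested after 48 h in differentiation medium with horse serum and insulin. The hairpin sequences and the number of clones behind each group are not given in the sources used here. The labels do not say whether the 2 libraries of a group came from separate cultures, so the p-values measure only the spread between these libraries, which may be technical.

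Homologous recombination repairs a broken chromosome by copying the sister chromatid, which is available only after DNA has been replicated. The broken ends are first trimmed to single strands, and with the help of BRCA2 these strands then find and invade the intact copy. The Fanconi pathway acts at crosslinks between the DNA strands. Its core complex attaches ubiquitin to FANCD2 and FANCI, and this step leads to cutting of the crosslink and to repair by recombination. Both pathways are used mainly by cycling cells, and many of their genes are transcribed most strongly around S phase.

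The targeted gene was examined first. The Pkm1 transcript was at 546 and 589 TPM (a level scaled to transcript length and to the sum over all transcripts of a library) in shScr. It was at 243 and 218 TPM in shPkm1 and at 254 TPM in both libraries labelled shPkm2. The Pkm2 transcript was at 1073 and 1517 TPM in shScr, at 1278 and 1379 TPM in shPkm1, and at 2700 and 2630 TPM in the libraries labelled shPkm2. The Pkm1 isoform was thus lower in both hairpin groups, and the Pkm2 isoform was not lower in the libraries labelled shPkm2, which are named by their label throughout. For the whole gene, Pkm had a log2 fold change of -0.63 in shPkm1 against shScr (adjusted p = 0.00107, edgeR), which did not pass on log2(TPM + 1) (-0.24, adjusted p = 0.124, limma). In shPkm2 against shScr it was 0.20 (adjusted p = 0.198), which passed as higher with library totals (0.52, adjusted p = 0.00243) and on log2(TPM + 1) (0.66, adjusted p = 0.000666, limma). It was 0.10 without shScr replicate 1 and passed without shScr replicate 2 (0.31, adjusted p = 0.0282), and in shPkm2 against shPkm1 it was 0.83 (adjusted p = 0.000159). Totals lay between 18216896 and 19796036 estimated counts per library. The shScr libraries differed more from each other (chi-square per degree of freedom 32.3 over genes) than those of shPkm1 (6.16) or shPkm2 (6.93).

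All 9 genes were higher in shPkm1 than in shScr, and higher again in the libraries labelled shPkm2. Each of them passed the test in each comparison (edgeR quasi-likelihood, Benjamini-Hochberg adjusted p under 0.05). Large parts of the transcriptome also moved. In shPkm1 against shScr 63.1% of the 12643 tested genes passed, 31.8% as higher and 31.4% as lower, beside 9 higher and 0 lower of the 9 genes. In shPkm2 against shScr 68% passed, 33.9% as higher and 34.2% as lower, again beside 9 higher and 0 lower of 9. In shPkm2 against shPkm1 53% passed, 25.7% as higher and 27.3% as lower, and the 9 genes were split in the same way, 9 to 0. The 3 comparisons share libraries, so their counts are not independent of each other.

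The median log2 fold change of the 9 genes was 0.89 (range 0.65 to 2.22) in shPkm1 against shScr. It was 2.26 (1.76 to 2.70) in shPkm2 against shScr and 1.31 (0.48 to 1.64) in shPkm2 against shPkm1. Over all tested genes the medians were -0.00015, 0.0074 and 0.0046. A change of at least 2-fold was found for 2 of the 9 genes in shPkm1 against shScr, for 9 in shPkm2 against shScr and for 8 in the direct comparison. At least 4-fold was reached by 1, 7 and 0 genes. In bulk RNA, fewer cells of a type and less RNA per cell cannot be told apart.

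In CPM, counts scaled to the corrected library size, the lowest shPkm1 library exceeded the highest shScr library for all 9 genes, and the lowest shPkm2-labelled library exceeded the highest shPkm1 library for all 9. This order without overlap was shown by 14.7% of all tested genes. Higher values without overlap were shown by 40.7%, 42.2% and 40.2% of them in the 3 comparisons, taken in the same order as above. Without the composition correction (library totals only) the median over all tested genes moved to 0.19, 0.33 and 0.14, and the share of passing genes that were higher moved from 50.3%, 49.8% and 48.4% to 65.8%, 69.3% and 61.3%. On log2(TPM + 1) that share was 78.1%, 75.7% and 53.8%. Relative to the median of all tested genes, the median of the 9 genes was 0.89, 2.25 and 1.30 with the correction, and 0.57, 1.72 and 1.10 on log2(TPM + 1). With library totals it was 0.89, 2.24 and 1.30, as such a scaling moves all genes alike.

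**Figure D1:**
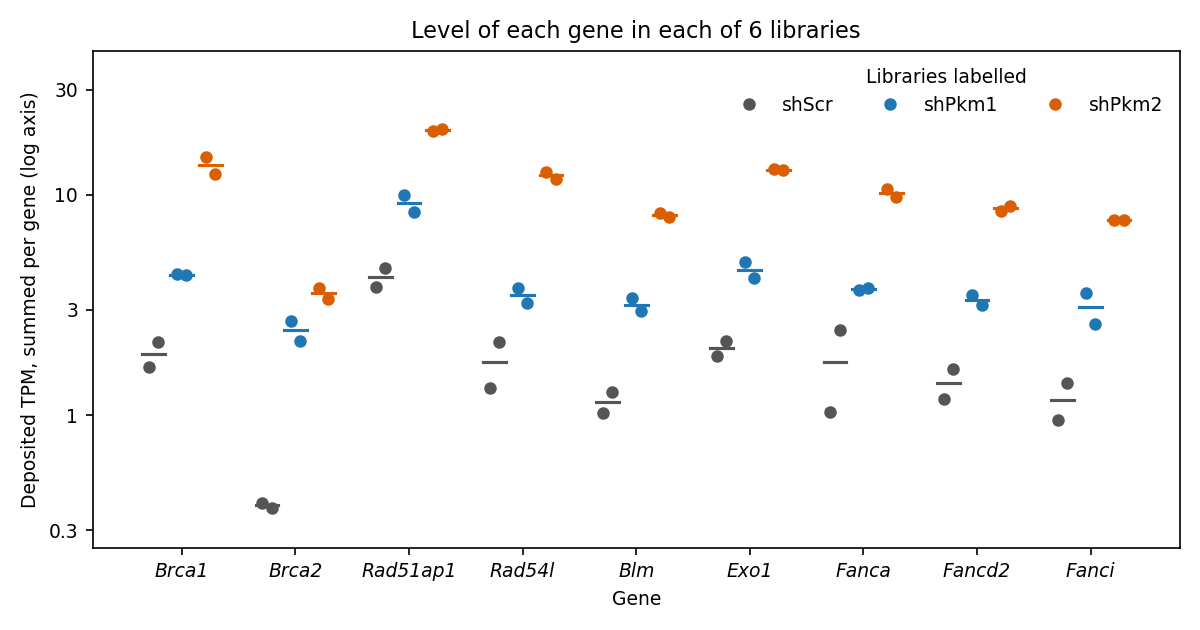
Level of each gene in TPM (log axis) in the 6 libraries, with 1 point per library, a bar at the mean of each group of 2, and groups coloured by label. For each gene the shScr points lie lowest and the points labelled shPkm2 highest, from 0.38 TPM (Brca2, shScr) to 19.92 TPM (Rad51ap1, labelled shPkm2).

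The genes were expressed at low to moderate levels. Rad51ap1 had the highest TPM of the 9 in every group and did not overlap the next gene, with 4.22 ± 0.59 in shScr, 9.15 ± 1.10 in shPkm1 and 19.7 ± 0.35 in shPkm2 (mean ± SD; n = 2 here and below). Brca2 had the lowest mean in every group, with 0.39 ± 0.014, 2.43 ± 0.35 and 3.57 ± 0.30 TPM. In shScr each of the 7 genes between them overlapped its neighbour in the order, although Exo1 and Brca1 lay above Fancd2, Fanci and Blm in both libraries. In the libraries labelled shPkm2 the order was Rad51ap1, Brca1, Exo1, Rad54l, Fanca, Fancd2, Blm, Fanci and Brca2, and of these neighbours only Brca1 and Exo1 overlapped. Among genes with a mean TPM above 0, the 9 lay between the percentiles 21.7 (Brca2) and 41.7 (Rad51ap1) in shScr, between 30.4 and 47.4 in shPkm1, and between 33.9 and 62.1 in shPkm2.

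Brca1 acts at the choice of repair route, where its protein, bound to BARD1, favours trimming of the ends and later helps to bring in BRCA2. The gene (NCBI gene 12189) lies on the minus strand at chr11:101488761-101551955 of GRCm38. Its level was 1.66 and 2.14 TPM in shScr, 4.37 and 4.31 in shPkm1, and 14.90 and 12.40 in shPkm2. All hairpin libraries lay above both shScr libraries, and those labelled shPkm2 stood furthest away. In counts Brca1 rose by 0.97 log2 units (SE 0.13, adjusted p = 3.85e-05) in shPkm1 against shScr and by 2.52 (SE 0.13, adjusted p = 1.58e-09), or 5.74-fold, in shPkm2 against shScr. The direct difference, 1.55 (SE 0.12, adjusted p = 1.34e-07), had a 95% interval of 1.30 to 1.81.

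Exo1 encodes an exonuclease that trims broken ends over long distances and also serves mismatch repair. The gene (NCBI gene 26909) lies on the plus strand at chr1:175880768-175911396. Exo1 was at 1.85 and 2.17 TPM in shScr, 4.97 and 4.18 in shPkm1, and 13.11 and 12.89 in shPkm2, so that the 2 libraries of each group lay close together. The log2 fold changes were 0.77 (SE 0.16, adjusted p = 0.000849) in shPkm1 against shScr, 2.21 (SE 0.15, adjusted p = 2.12e-08) in shPkm2 against shScr and 1.43 (SE 0.13, adjusted p = 1.13e-06) between the hairpin groups. With curated transcripts alone none of these passed, at 0.40 (adjusted p = 0.589), 1.58 (adjusted p = 0.0505) and 1.18 (adjusted p = 0.135).

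Blm encodes a helicase that takes part in end trimming and, with topoisomerase III alpha, takes apart the joined DNA molecules formed late in recombination. It lies on the minus strand at chr7:80454993-80535148 (NCBI gene 12144). Blm measured 1.02 and 1.28 TPM in shScr, 3.39 and 2.96 in shPkm1, and 8.30 and 7.91 in shPkm2. The groups were well separated. Its log2 fold changes were 1.04 (SE 0.16, adjusted p = 0.000107), 2.35 (SE 0.15, adjusted p = 1.71e-08) and 1.31 (SE 0.13, adjusted p = 3.08e-06). With Brca2 it was 1 of the 2 genes that reached 2-fold in shPkm1 against shScr, at 2.06-fold.

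Brca2 encodes a protein that acts on the trimmed, single-stranded ends and prepares them for strand invasion. It lies on the plus strand at chr5:150522297-150570147 (NCBI gene 12190). Its level was 0.40 and 0.38 TPM in shScr, 2.67 and 2.18 in shPkm1, and 3.78 and 3.35 in shPkm2. In these gene totals the step from shScr to shPkm1 was the larger one and the hairpin groups lay close to each other. With curated transcripts alone the order of the steps turned, at 0.48 log2 units (adjusted p = 0.829) from shScr to shPkm1 and 0.95 (adjusted p = 0.671) from shPkm1 to shPkm2, and neither passed. In estimated counts, rounded, the libraries held 52 and 50, 289 and 261, and 439 and 400. The log2 fold change in shPkm1 against shScr was 2.22 (SE 0.17, 95% interval 1.86 to 2.59, adjusted p = 1.67e-07), or 4.67-fold, and in shPkm2 against shScr it was 2.70 (SE 0.16, adjusted p = 9.21e-09), or 6.50-fold. Between the hairpin groups it was 0.48 (SE 0.13, 95% interval 0.19 to 0.76, adjusted p = 0.00809), or 1.39-fold.

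In shPkm1 against shScr the interval of Brca2 lay above those of the other 8 genes, whose upper ends reached at most 1.40. In the direct comparison its interval ended at 0.76, below those of the other 8, of which that of Rad51ap1 (0.77 to 1.34) and that of Fanca (0.79 to 1.70) began lowest. The difference between genes was not tested. The direct difference for Brca2 did not pass without shPkm1 replicate 2 (0.37, adjusted p = 0.0993), without shPkm2 replicate 1 (0.41, adjusted p = 0.0976) or on log2(TPM + 0.1) (0.54, adjusted p = 0.0734, limma).

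Rad51ap1 encodes a protein that stimulates strand invasion. It is located on the minus strand at chr6:126923415-126939621 (NCBI gene 19362). Levels were 3.80 and 4.64 TPM in shScr, 9.93 and 8.37 in shPkm1, and 19.43 and 19.92 in shPkm2. The most highly expressed of the 9 genes thus also kept its groups apart. It had the smallest change of the 9 in shPkm2 against shScr, which came to 1.76 log2 units (SE 0.14, adjusted p = 1.69e-07), or 3.40-fold. The other contrasts gave 0.71 (SE 0.15, adjusted p = 0.00119) for shPkm1 against shScr and 1.05 (SE 0.13, adjusted p = 1.86e-05) for shPkm2 against shPkm1.

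Rad54l encodes a motor protein that remodels DNA during strand invasion. It lies on the minus strand at chr4:116094261-116123700 (NCBI gene 19366). It was at 1.33 and 2.14 TPM in shScr, 3.78 and 3.24 in shPkm1, and 12.67 and 11.80 in shPkm2. The step between the hairpin groups was the largest among the 9 genes, at 1.64 log2 units (SE 0.17, adjusted p = 3.95e-06), or 3.11-fold. Against shScr the values were 0.65 (SE 0.21, adjusted p = 0.0138) for shPkm1 and 2.29 (SE 0.19, adjusted p = 1.86e-07) for shPkm2. The rise in shPkm1 did not pass without shScr replicate 1 (0.35, adjusted p = 0.106) or without shPkm1 replicate 1 (0.53, adjusted p = 0.112), and it came to 1.06 without shScr replicate 2.

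Fanca encodes a subunit of the Fanconi core complex, the ubiquitin ligase of the pathway. The gene (NCBI gene 14087) is on the minus strand at chr8:123266294-123318651. Levels were 1.03 and 2.44 TPM in shScr, 3.71 and 3.77 in shPkm1, and 10.60 and 9.76 in shPkm2. The shScr libraries stood further apart for Fanca than for any other of the 9 genes, at 52 and 122 rounded counts. Its rise in shPkm1 against shScr was the one with the highest adjusted p of the 9, at 0.68 log2 units (SE 0.25, 95% interval 0.15 to 1.22, adjusted p = 0.0265). It came to 0.27 without shScr replicate 1 (adjusted p = 0.205), 0.83 without shPkm1 replicate 1 (adjusted p = 0.0523) and 0.55 without shPkm1 replicate 2 (adjusted p = 0.171), and none of these passed. Without shScr replicate 2 it was 1.33, and the rise in shPkm2 against shScr was then 2.58. In shPkm2 Fanca was higher than in shScr by 1.93 (SE 0.23, adjusted p = 6.56e-06) and higher than in shPkm1 by 1.24 (SE 0.21, adjusted p = 0.000263).

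Fancd2 and Fanci encode the paired proteins that receive ubiquitin from the core complex and close around the damaged DNA. Fancd2 (NCBI gene 211651) lies on the plus strand at chr6:113531640-113597020 and Fanci (NCBI gene 208836) on the plus strand at chr7:79392312-79450266. Fancd2 was at 1.18 and 1.62 TPM in shScr, 3.52 and 3.15 in shPkm1, and 8.47 and 8.87 in shPkm2. Fanci was at 0.95 and 1.40 TPM in shScr, 3.58 and 2.59 in shPkm1, and 7.69 and 7.67 in shPkm2. Both genes separated the groups in the same order, and their levels stayed near each other, with a Fancd2 to Fanci ratio between 0.98 and 1.24 in the 6 libraries. Log2 fold changes against shScr were 0.89 (SE 0.17, adjusted p = 0.000436) and 2.21 (SE 0.15, adjusted p = 3.92e-08) for Fancd2. For Fanci they were 0.97 (SE 0.20, adjusted p = 0.000809) and 2.26 (SE 0.18, adjusted p = 1.72e-07). Between the hairpin groups Fancd2 differed by 1.32 (SE 0.14, adjusted p = 4.14e-06) and Fanci by 1.28 (SE 0.16, adjusted p = 2.26e-05). With curated transcripts alone Fanci did not pass in shPkm1 against shScr (0.13, adjusted p = 0.887) or between the hairpin groups (1.93, adjusted p = 0.0669).

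**Figure D2:**
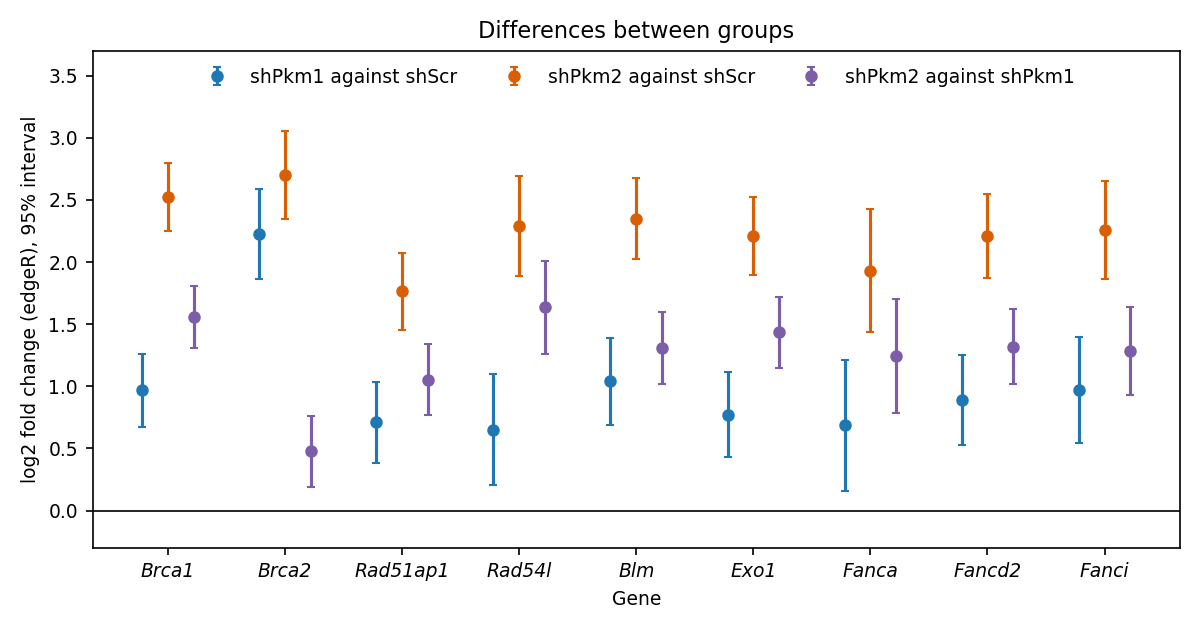
Log2 fold change of each gene with its 95% interval from the edgeR fit, for shPkm1 against shScr, shPkm2 against shScr and shPkm2 against shPkm1, with a line at 0. No interval crosses 0. In these gene totals Brca2 has its largest step between shScr and shPkm1 (2.22) and a small one between the hairpin groups (0.48).

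Within the summed TPM of the 9 genes some single genes held a steady share. Fancd2 held between 8.56% and 9.38% of the sum in every library, and Blm between 7.03% and 8.52%. Brca2 held 3.03% and 2.09% in shScr, 6.69% and 6.27% in shPkm1, and 3.82% and 3.54% in shPkm2. Its share was therefore highest in both shPkm1 libraries. Rad51ap1 held the largest share in each library, from 19.6% in shPkm2 to 28.7% in shScr. Fanca ranged from 7.79% to 13.4%, with both extremes in shScr.

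The levels were also set against those of direct partners. Palb2, whose product links BRCA1 to BRCA2, was the least abundant of these partners, at 0.31 and 0.32 TPM in shScr, 0.85 and 0.67 in shPkm1, and 2.32 and 1.94 in shPkm2. The Brca2 to Palb2 ratio was 1.29 and 1.19 in shScr, 3.14 and 3.25 in shPkm1, and 1.63 and 1.73 in shPkm2. It was highest in both shPkm1 libraries. Palb2 held only between 11 and 91 rounded counts per library, and its rise in shPkm1 against shScr (1.06, SE 0.35, adjusted p = 0.0183) did not pass with DESeq2 (adjusted p = 0.0844), without shScr replicate 2 (0.86, adjusted p = 0.0871) or without shPkm1 replicate 1 (0.99, adjusted p = 0.0855). Bard1, the partner of Brca1, rose by 0.93 (adjusted p = 0.00538), 2.05 (adjusted p = 4.09e-06) and 1.12 (adjusted p = 0.000512), with the first value not passing with curated transcripts (0.91, adjusted p = 0.0534) and standing at 0.59 without shScr replicate 1 and at 1.42 without shScr replicate 2. The Brca1 to Bard1 ratio ranged from 2.49 to 4.26, with both extremes in shScr.

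Other ratios shifted along with the groups. Blm relative to Top3a, which encodes its topoisomerase partner, stood at 0.15 in both shScr libraries, at 0.43 and 0.35 in shPkm1, and at 0.61 and 0.75 in shPkm2. Fanca relative to Fancg, another core complex gene, was 0.49 and 0.60 in shScr, 0.78 and 0.73 in shPkm1, and 1.80 and 1.91 in shPkm2. In contrast, Fanca relative to the core complex gene Fancb was between 1.42 and 1.55 in the hairpin groups, within the shScr range of 1.18 to 2.20. Exo1 relative to Dna2, which encodes the other long-range trimming nuclease, was 2.57 and 2.36 in shScr, 5.07 and 3.45 in shPkm1, and 2.11 and 2.40 in shPkm2.

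The remaining genes of recombination moved less uniformly. Of 42 further genes, 21 were higher and 5 lower in shPkm1 against shScr, with a median log2 fold change of 0.35. With curated transcripts 11 were higher and 3 lower, and without shPkm1 replicate 1 the number of lower genes was 2. In shPkm2 against shScr 29 were higher and 3 lower (median 0.99), and in shPkm2 against shPkm1 25 were higher and 2 lower (median 0.52). These shares can be read against the 31.8%, 33.9% and 25.7% of all tested genes that passed as higher. In shPkm1 the largest rises were those of Rad54b (1.86), a relative of Rad54l, and Rbbp8 (1.46), which encodes the CtIP protein that starts end trimming. In shPkm2 against shScr they were those of Gen1 (2.90), a nuclease gene for joined DNA molecules, and Dna2 (2.44). The helicase gene Recql5 (-0.67 and -0.87) and the nuclease gene Mus81 (-0.49 and -0.70) fell in both hairpin groups. The falls of Recql5 did not pass with curated transcripts (-0.39, adjusted p = 0.151, and -0.33, adjusted p = 0.199). The Mus81 falls did not pass on log2(TPM + 1) (-0.09, adjusted p = 0.493, and -0.24, adjusted p = 0.0816, limma).

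Dna2 had a log2 fold change of 0.11 in shPkm1 against shScr (adjusted p = 0.702) but rose by 2.33 between the hairpin groups (adjusted p = 3.17e-07). This was the opposite arrangement to Brca2 in the gene totals, though not to Brca2 with curated transcripts alone. Eme1, which encodes the partner of MUS81, likewise rose in the direct comparison (1.73, adjusted p = 7.38e-06), where Babam2 (-0.45, adjusted p = 0.00169) and Uimc1 (-0.32, adjusted p = 0.0261), both of the BRCA1-A complex, fell. The fall of Uimc1 did not pass with DESeq2 (-0.32, adjusted p = 0.0930) or without shPkm1 replicate 1 (-0.24, adjusted p = 0.178), shPkm2 replicate 1 (-0.33, adjusted p = 0.113) or shPkm2 replicate 2 (-0.32, adjusted p = 0.110). Brip1, a helicase gene whose product binds BRCA1, had a log2 fold change of 0.32 in shPkm1 against shScr that missed the threshold (adjusted p = 0.101) and passed without shScr replicate 1 (0.56, adjusted p = 0.00266), while it was 0.099 without shScr replicate 2. It rose by 1.05 in shPkm2 against shScr (adjusted p = 4.40e-05) and by 0.74 in the direct comparison (adjusted p = 0.000975).

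The other Fanconi genes were also divided. Of 23, 9 were higher and 2 lower in shPkm1 against shScr (median 0.25), 12 were higher and 1 lower in shPkm2 against shScr (median 0.41), and 12 were higher and 1 lower in the direct comparison (median 0.37). The shares of higher genes are again to be read against 31.8%, 33.9% and 25.7% of all tested genes, and the first, 9 of 23, was near that background. The count of 9 fell to 5 without shPkm1 replicate 1 and with curated transcripts, and the last count of 12 fell to 7 without shPkm2 replicate 2 and to 5 with curated transcripts. Usp1, which encodes the enzyme that removes ubiquitin from FANCD2, rose by 0.99 (adjusted p = 2.79e-05), 2.11 (adjusted p = 1.24e-08) and 1.12 (adjusted p = 5.72e-06). Fancb rose by 0.88, 2.37 and 1.49, and Rfwd3, a ubiquitin ligase gene, by 1.47 in the direct comparison. Ube2t, the gene of the enzyme that passes ubiquitin to FANCD2, had a log2 fold change of 0.30 in shPkm1 against shScr (adjusted p = 0.315), which passed on log2(TPM + 1) (0.60, adjusted p = 0.00893, limma) and was 0.15 without shScr replicate 1 and 0.48 without shScr replicate 2. It rose by 1.16 in shPkm2 against shScr (adjusted p = 0.000668). Falls were seen for Fancf (-0.59) and Mad2l2 (-0.56) in shPkm1 and for Fancc (-0.66) in shPkm2 against shPkm1. The fall of Mad2l2 did not pass on log2(TPM + 1) (-0.14, adjusted p = 0.307, limma). The fall of Fancf did not pass with DESeq2 (adjusted p = 0.0716) or with library totals (-0.39, adjusted p = 0.0788). Nor did it pass on log2(TPM + 1) (-0.17, adjusted p = 0.319, limma) or with curated transcripts (-0.55, adjusted p = 0.0707). It also did not pass without shPkm1 replicate 1 (-0.60) or without shPkm1 replicate 2 (-0.55). The fall of Fancc did not pass without shPkm2 replicate 1 (-0.54). The fall of Ercc4 in shPkm2 against shScr (-0.30, adjusted p = 0.0413) turned to 0.026 with library totals and to 0.10 on log2(TPM + 1).

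Genes of the competing route, end joining, moved in both directions. Of 18 tested, 7 were higher and 5 lower in shPkm1 against shScr (median -0.01), 9 were higher and 2 lower in shPkm2 against shScr (median 0.36), and 7 were higher and 1 lower in the direct comparison (median 0.21). In shPkm1 against shScr these shares were near those of all tested genes, of which 31.8% passed as higher and 31.4% as lower. Polq, the polymerase gene of the error-prone branch that also starts from trimmed ends, rose by 1.53, 2.90 and 1.37, the first of which did not pass with curated transcripts (0.59, adjusted p = 0.153). Rif1, which encodes a protein that restrains trimming, rose by 1.14 and 1.84 against shScr. Paxx, which encodes a factor of the classical branch, fell by 0.63, 2.34 and 1.71. The fall of Paxx in shPkm1 did not pass on log2(TPM + 1) (-0.21, adjusted p = 0.141, limma). Its level was 45.5 and 42.8 TPM in shScr and 12.6 and 12.5 TPM in shPkm2. Of 19 damage checkpoint genes, 8, 17 and 15 were higher and 1, 1 and 0 lower (medians 0.30, 1.35 and 0.82), among them Chek1 with 0.99, 2.57 and 1.58. Of all tested genes 31.8%, 33.9% and 25.7% passed as higher, and 8 of 19 was not far from the first of these shares. The count of 8 became 14 with library totals, 15 on log2(TPM + 1) and 4 with curated transcripts.

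The numbers of lower genes also rest on the scaling. In shPkm1 against shScr the counts of lower genes were 5 for recombination, 2 for Fanconi, 5 for end joining and 1 for checkpoint genes with the composition correction. They were 2, 1, 3 and 0 with library totals and 1, 0, 0 and 0 on log2(TPM + 1). In shPkm2 against shScr the counts of 3, 1, 2 and 1 became 2, 0, 1 and 0 with library totals and 1, 0, 1 and 0 on log2(TPM + 1), and in the direct comparison the 2 lower recombination genes became 1 with library totals. Without shPkm1 replicate 1 the counts in shPkm1 against shScr for recombination, Fanconi and end joining were 2, 1 and 3.

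**Figure D3:**
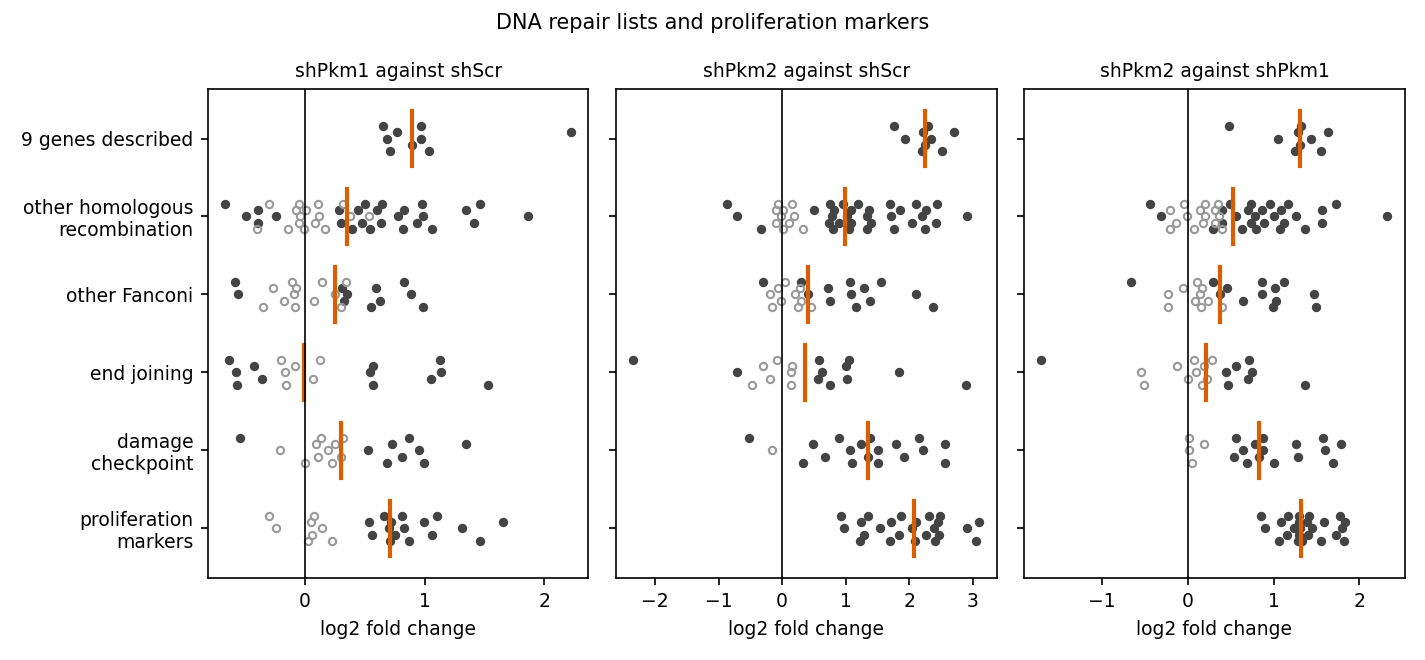
Log2 fold changes of the 9 genes and of the tested genes of 5 lists in the 3 comparisons, with 1 point per gene, filled where the adjusted p was under 0.05, open where not, and a bar at the median of each list. The medians of the 9 genes (0.89, 2.26 and 1.31) lie near those of the proliferation markers (0.71, 2.07 and 1.32), and the end joining genes spread to both sides of 0.

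Markers of proliferation moved in the same direction as the 9 genes. Of 24 proliferation markers, 16 passed as higher in shPkm1 against shScr and 24 in each of the other comparisons, with none lower, beside 31.8%, 33.9% and 25.7% of all tested genes that passed as higher. Without shScr replicate 1, 2 of them were lower in shPkm1 against shScr. Their summed TPM was 488 and 643 in shScr, 1070 and 1030 in shPkm1, and 2758 and 2664 in shPkm2. The summed TPM of the 9 genes was 13.2 and 18.2 in shScr, 39.9 and 34.75 in shPkm1, and 98.95 and 94.6 in shPkm2. As a percentage of the proliferation sum this came to 2.71 and 2.83, to 3.73 and 3.37, and to 3.59 and 3.55, so that the ratio was lowest in both shScr libraries and overlapped between the hairpin groups. Mki67, a marker of cycling cells, rose by 1.46, 2.90 and 1.44, and the first value was 3.56 with curated transcripts.

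The muscle markers went the other way. Of 19 tested out of 20, 18 were lower and none higher in shPkm1 against shScr (median -1.66), and 18 were lower and 1 higher in shPkm2 against shScr (median -7.46), beside 31.4% and 34.2% of all tested genes that passed as lower. Their summed TPM ran from 43280 to 60790 in shScr, from 20251 to 21732 in shPkm1 and from 1227 to 1283 in shPkm2, and none of them was at 0 TPM in both libraries of a group. The gene that was higher was Myf5, a marker of undifferentiated myoblasts, with a log2 fold change of 1.74. In shScr, 8 of the 9 genes were lower in replicate 1, which held the lower proliferation sum and the higher muscle sum. The part of proliferation and of differentiation in the levels of the 9 genes was not tested.

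Markers of other cell types were few among the tested genes, and their counts are read beside the shares of all tested genes that passed as higher (31.8%, 33.9% and 25.7%) and as lower (31.4%, 34.2% and 27.3%). Of 8 fibroblast markers, 6 were tested. All 6 were higher in shPkm1 against shScr, and 1 was higher and 3 lower in shPkm2 against shScr. In shPkm2 against shPkm1, 0 of them were higher and 5 lower (median -2.34). Their summed TPM was 1291 and 1584 in shScr, 7531 and 7263 in shPkm1, and 1229 and 1068 in shPkm2. Thy1 was at 0 TPM in shScr and shPkm1 and Lum at 0 TPM in shScr. The adipocyte markers (6 in the table) summed to 15.1 and 12.8 TPM in shScr, 29.4 and 30.5 in shPkm1, and 52.5 and 46.4 in shPkm2. The 8 bone and cartilage markers summed to 17.9 and 23.2 TPM in shScr, 34.1 and 30.6 in shPkm1, and 53.4 and 47.0 in shPkm2. Both sums had the group order of the 9 genes, without overlap, and were not tested as sums. Of the 3 tested adipocyte markers 2 passed as higher in each hairpin group against shScr, with none lower. In shPkm2 against shPkm1, 1 of them was higher and 1 lower (median -0.07). Of the 3 tested bone and cartilage markers, 1 was higher and 1 lower in shPkm1 against shScr, 2 were higher in shPkm2 against shScr, and 1 was higher in the direct comparison (median 0.01). The 3 leukocyte markers in the table summed to between 1.35 and 4.26 TPM. Of these, 2 were higher and 1 lower in shPkm1 against shScr, and 1 was higher and 2 lower in shPkm2 against shScr. In the direct comparison 0 were higher and 2 lower. Adipoq and Plin1 were at 0 TPM in shPkm2, and Ibsp was at 0 TPM in all groups. The part of such cells in the results was not tested.

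**Figure D4:**
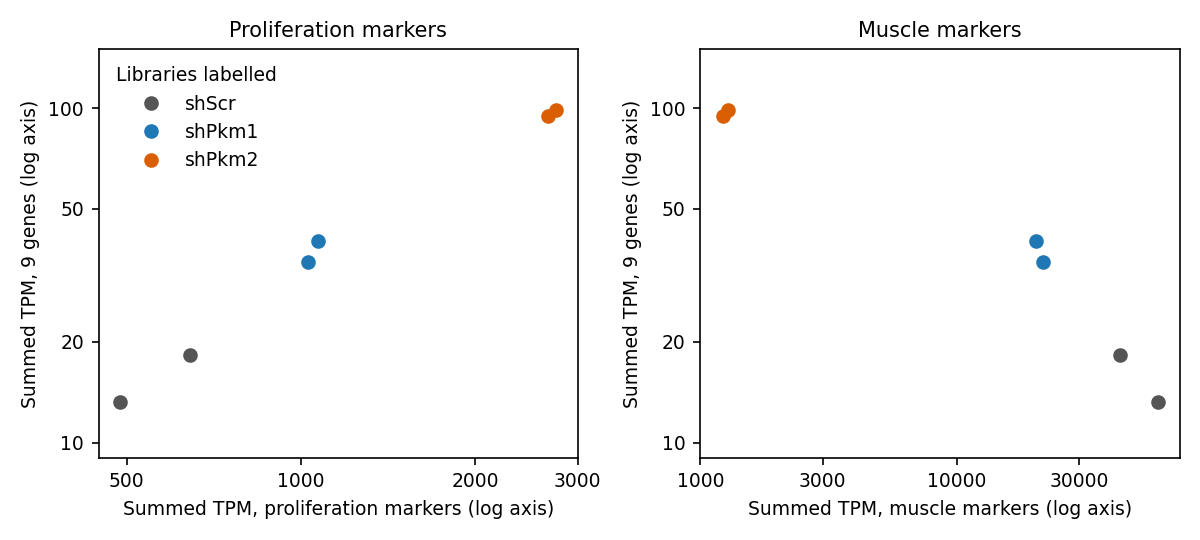
Summed TPM of the 9 genes against the summed TPM of 24 proliferation markers (left) and of 20 muscle markers (right), all on log axes, with 1 point per library coloured by group. The libraries labelled shPkm2 lie at 2758 and 2664 TPM of proliferation markers and at 1283 and 1227 TPM of muscle markers, and the shScr libraries at the other end of both axes.

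Among 10944 other tested genes (mean count 50 or more), those whose pattern was closest to the median pattern of the 9 over the 6 libraries were Ska1, Tm4sf1, G6pdx, Cdca2 and Cdca3. Closeness was measured as the root mean square difference of centred log2 CPM, which was 0.059 for Ska1, 0.060 for Tm4sf1, 0.061 for G6pdx, 0.064 for Cdca2 and 0.066 for Cdca3. Ska1 encodes a protein that joins chromosomes to the spindle and had log2 fold changes of 0.97, 2.18 and 1.21. G6pdx, the gene of the first enzyme of the pentose phosphate pathway, had 0.96, 2.34 and 1.38. Of the 9 genes themselves, Fancd2 lay closest to their median (0.039) and Brca2 furthest from it (0.55), with Fanca at 0.25 and Rad51ap1 at 0.22.

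Promoter sequences from RefSeq (GRCm38.p6), from 250 bases before to 50 after the start site, were matched for 7 of the 9 genes, in 8 windows. Exo1 and Fancd2 were not matched. Positions count from the start site of the promoter table, which for all matched genes but Brca1 lies inside the gene bounds given above, so that the stretches of Brca2 and Fanca fall within those bounds and those of Blm and Rad51ap1 in part. Motifs known from genes of cycling cells were searched on both strands, and none of the letter strings contains another. The CCAAT box, CCAAT, was present in 6 of the 8 windows (5 of the 7 genes), and in 37.4% of the 32851 windows (11096 of 27025 genes) of the whole table. An E2F motif, searched as TTTCCCGC, TTTCGCGC, TTTGCCGC or TTTGGCGC, was found in 1 of the 8 windows, that of Brca2, and in 2.26% of all windows. The cell cycle homology region TTTGAA was found in none of the 8 windows and in 17.9% of all windows. The stretches that hold a match are shown 5′ to 3′ on the strand of the gene, with the match in capitals.
Brca1, chr11:101551956-101552105, minus strand, match at position -86 from the start site: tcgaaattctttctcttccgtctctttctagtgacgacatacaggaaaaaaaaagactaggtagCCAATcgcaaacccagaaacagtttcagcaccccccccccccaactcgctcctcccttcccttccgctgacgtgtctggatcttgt
Rad54l, chr4:116123701-116123839, minus strand, match at position -50: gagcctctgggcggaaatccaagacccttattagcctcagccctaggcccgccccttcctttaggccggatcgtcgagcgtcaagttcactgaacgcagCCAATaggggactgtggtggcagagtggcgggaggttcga
Fanca, chr8:123318583-123318611, minus strand, the match at position -23: gcctggccgcggCCAATcggaaggcagcg
Rad51ap1, chr6:126939607-126939635, minus strand, match on the other strand at position -36: aggcgagcggtgATTGGcgggctggcgca
Blm, chr7:80535143-80535171, minus strand, the match at position -161: ttcagggattacCCAATcagaatcatcct
Brca2, chr5:150522442-150522471, plus strand, E2F match on the other strand at position -168: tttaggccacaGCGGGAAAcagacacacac
Fanca held a further match at -50, Rad51ap1 at -230 and Blm at -186. No CCAAT was found in the windows of Brca2 and Fanci. A match is a description of the letters in the window and no evidence of a bound factor.

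The gene totals rest on transcripts among which the counting divided shared reads. Blm was read mostly from its curated RefSeq transcript, which held between 80.8% and 100% of its TPM. Exo1 was assigned mainly to the predicted transcript XM_006496862.3, and its curated transcript held between 2.79% and 4.86%. Brca2 was spread over 10 transcripts, of which only XM_011241020.2 was above 0 in every library, and its 2 curated transcripts held between 0% and 57.5%. For Fanci the curated share was 78.8% in one shPkm1 library and 20.1% in the other. Libraries of the same group thus differed in these shares.

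With counts from curated transcripts alone, 3 of the 9 genes passed in shPkm1 against shScr, 7 in shPkm2 against shScr and 4 in shPkm2 against shPkm1. Over all genes 5296, 6175 and 4177 then passed, against 7984, 8602 and 6703 with all transcripts. The medians of the log2 fold changes were then 0.83, 2.07 and 1.40. The genes that passed as higher throughout with these counts were Brca1, Blm and Fancd2. For Fanci the value in shPkm1 against shScr was then 0.13 (adjusted p = 0.887). For Brca2 that in shPkm2 against shScr was 1.43 (adjusted p = 0.479). Some other lost calls also came with a smaller difference than in the gene totals. These included Exo1 in each comparison and Rad51ap1 in shPkm2 against shPkm1 (0.77, adjusted p = 0.271). Further lost calls came with a difference as large or larger. Examples are Rad51ap1 (0.88, adjusted p = 0.207) and Rad54l (0.83, adjusted p = 0.0836) in shPkm1 against shScr. Another is Fanci in shPkm2 against shPkm1 (1.93, adjusted p = 0.0669).

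**Figure D5:**
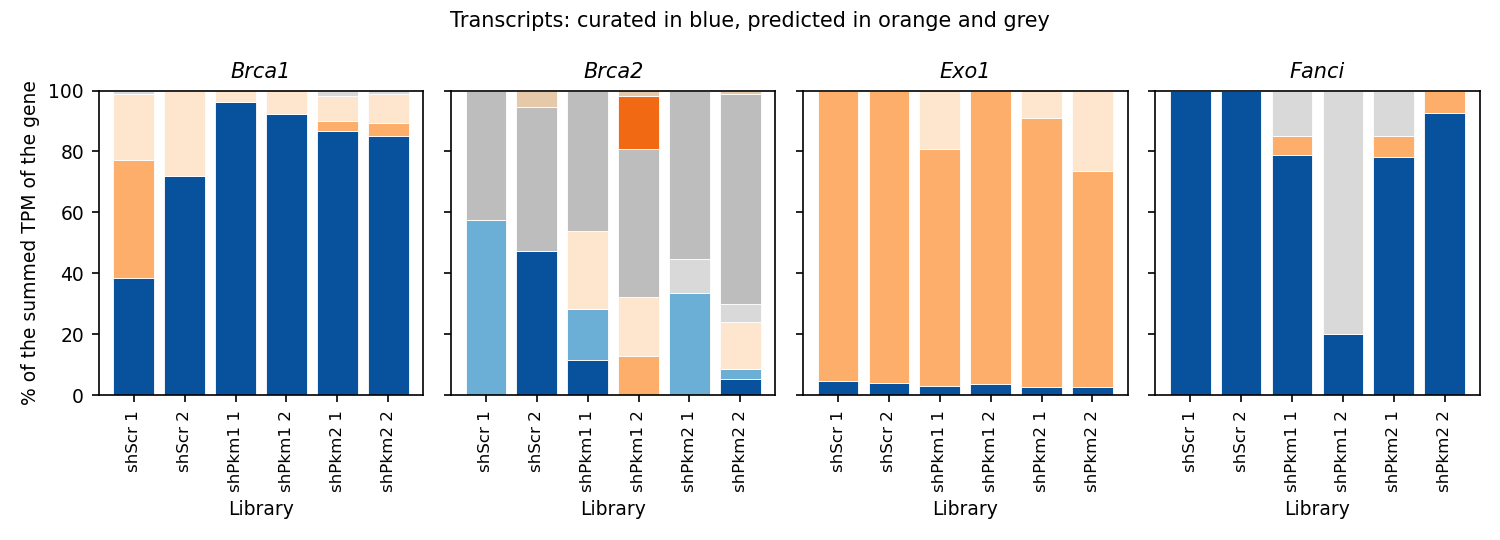
Share of each transcript in the summed TPM of Brca1, Brca2, Exo1 and Fanci in the 6 libraries, in percent, with curated transcripts in blue and predicted ones in orange and grey. The curated share of Exo1 stays at 2.79% to 4.86%, and that of Fanci is 78.8% in one shPkm1 library and 20.1% in the other.

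Rad54l, Fanca, Fanci and Fancd2 share exonic bases with a gene of the table on the opposite strand, and the strandedness of the libraries is not given in the sources used here. Reads from such a pair cannot be told apart without strand. Rad54l shares 1184 bases with Lrrc41, Fanca 920 with Zfp276, Fanci 921 with Polg and Fancd2 257 with Fancd2os. In shPkm1 and in shPkm2 against shScr the log2 fold changes were -0.88 and -0.80 for Lrrc41, -0.79 and -0.79 for Zfp276, and -0.43 and -0.37 for Polg, opposite in sign to those of the paired genes. In shPkm2 against shPkm1 they were 0.08 for Lrrc41, -0.01 for Zfp276 and 0.06 for Polg, and none of these passed (smallest adjusted p = 0.525). Fancd2os had at most 1 count in a library.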

How the data were processed

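Per the file headers, the deposited table lists estimated counts, FPKM and TPM of every RefSeq transcript and library. In the deposited table, TPM and FPKM carry the authors' scaling for length and library size, and FPKM was not used. The submitters' processing notes name HISAT, StringTie, Bowtie, RSEM and DESeq2 and the build mm10, with no versions or settings. Of the 17558 genes, 113 had no symbol in the NCBI name table. The 9 columns of group means were not used.

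Estimated counts were summed per NCBI gene and rounded. Genes were filtered with filterByExpr (minimum count 10, minimum total 15), scaled by TMM and tested with edgeR 4.0.16 (R 4.3.3) in a quasi-likelihood fit to all 6 libraries with group as the term. Tests were two-sided, with Benjamini-Hochberg adjustment over 12643 genes and a threshold of 0.05. The standard error is the log2 fold change over the root of F. Levels are deposited TPM summed per gene. The fit was tested on simulated data. With 2 libraries per group only models across all genes were used.

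The other gene lists, like the 9 genes, were chosen with earlier results of these data known. Beside the 9 genes, Pkm, Palb2, Bard1, Brip1, Ube2t and Usp1 were always eligible to be named, and 1 further gene is not reported here. From each list and comparison, up to 2 largest rises and 2 largest falls were eligible among passing genes (mean count 50 or more, groups not overlapping), as were the 5 genes closest in pattern. Myf5 and the antisense neighbours were named outside this rule. Alternatives were DESeq2 1.42.0, limma 3.58.1 on log2(TPM + 1) and log2(TPM + 0.1), other scalings and filters, curated transcripts, fits to the groups compared only, a replicate block and leaving out each library.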

Additional observations from a re-analysis of the deposited data

How the results depend on the processing

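Over 17 alternatives the 9 genes kept the direction of their differences in every one of the 459 values, and 21 values no longer passed the threshold, 13 of them with curated transcripts alone. In shPkm1 against shScr the number of the 9 genes that passed was 3 with curated transcripts (all genes 5296 against 7984), and in shPkm2 against shPkm1 it was 4 (all genes 4177 against 6703). These fits hold fewer counts per gene, and the cause of the lost calls was not tested. The median log2 fold change of the 9 genes was 1.18 on log2(TPM + 0.1) in shPkm1 against shScr, and in shPkm2 against shScr it was 2.64 on log2(TPM + 0.1) and 2.58 with library totals. Leaving out each library in turn, 7 to 9, 9 to 9 and 8 to 9 of the 9 genes passed in the 3 comparisons, with medians of 0.75 to 1.06, 2.08 to 2.47 and 1.25 to 1.37, and 6047 to 8285, 7231 to 8793 and 4939 to 7987 of all genes passed. Where this leaves 1 library in a group, that library is assumed to vary like the others. Ercc4 in shPkm2 against shScr turned from -0.30 to 0.026 with library totals, 0.10 on log2(TPM + 1) with and without the filter, 0.11 on log2(TPM + 0.1) and 0.13 with curated transcripts. Same-numbered libraries did not deviate together (correlations across genes -0.03, 0.04 and 0.05). With 1 difference per group this cannot exclude a pairing, and the labels do not state one. With the replicate block 9 of the 9 genes passed in each comparison, with medians of 0.90, 2.25 and 1.31, 7922, 8566 and 6682 of all genes passed, and 1 proliferation marker became lower in shPkm1 against shScr. Depth limits the genes with few counts, such as Palb2 with 11 and Bard1 with 26 in the lowest library, and Brca2, Fanca and Fanci with 50, 52 and 53.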
